A study of Mus musculus with 9 samples.

Results

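FrII cells of K/L leukaemic mice were compared with FrII cells of wild type mice on 3 arrays per group, which are 6 of the 9 Affymetrix mouse arrays of the study. The arrays were taken by their titles. FrII is the submitters' name for lineage-negative progenitors that lack Sca-1, carry c-Kit and have low or positive Mac1, and the stated extraction gate adds CD45.2 without CD45.1. K/L mice carry mutations on both alleles of Cebpa, in which K stands for a C-terminal lesion and L for an N-terminal lesion that leaves the short protein form. The wild type mice were C57/BL6, the strain given for every array, and all mice were 2 to 4 months old. The remaining 3 arrays held FrII cells of leukaemic mice that overexpress Sox4, the submitters' proposed target of mutant C/EBPα, and their values are given beside those of K/L where they help to place a gene. Tissue was labelled blood for each sample, and 5 ug of total RNA went into each labelling.

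Several features limit the model. The leukaemic cells were sorted for a surface phenotype shared with a normal progenitor, so both arms hold cells picked by proteins of the FrII gate. Sample descriptions list CD45 forms only for the leukaemic samples. Whether that part of the gate was the same for wild type cells is not known. How many founder mice or leukaemic clones stand behind the 3 K/L arrays is not given in the sources used here, and p-values therefore measure the spread between these arrays only. In sorted bulk RNA, a fall of a gene in every cell cannot be told apart from fewer cells of a type that expresses it. Genes of the gate bore out the label in part. Of 5 tested gate genes 0 were higher and 1 lower in K/L cells past the test. That compares with 29% and 21.6% of all tested genes. Changes of the 5 spanned -0.44 to 0.26. Kit, the receptor used in the sort, read 9.17, 9.25 and 9.11 on the wild type arrays and 9.36, 9.19 and 9.11 on the K/L arrays, all in log2 intensity, and did not pass the test (adjusted p = 0.776). Itgam, which encodes the Mac1 alpha chain, read 4.99, 4.76 and 4.97 and 4.02, 3.76 and 3.7, too low on most arrays to enter the test. Cd34 lay between 11.67 and 11.85 in wild type and between 11.68 and 11.71 in K/L cells. Mpo and Ctsg, a peroxidase and a protease of early granulocytic cells, were bright in both arms and did not pass the test (changes of -0.07 and -0.02). Primary granule genes as a list did change, with 4 of 16 tested higher and 6 lower in K/L cells.

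C/EBPα is a basic leucine zipper transcription factor that drives myeloid progenitors into the granulocytic programme and slows their division. The short form that remains after N-terminal mutation binds DNA but restrains division poorly, while C-terminal mutation disturbs DNA binding. Acute myeloid leukaemias with mutations on both alleles commonly pair one lesion of each kind.

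Array quality touches some of what follows. The third wild type array stood apart: it correlated at 0.979 and 0.977 with the other wild type arrays and differed from them over 2-fold for 400 and 495 genes, against 0.991 to 0.993 and 18 to 69 genes within the other same-group pairs. It lay over 2-fold below the mean of the other wild type arrays for 280 tested genes and over 2-fold above it for 105. The 3′ to 5′ ratio of the Gapdh control probe sets, a sign of RNA integrity, spanned 2.68 to 2.91 over the wild type arrays but 1.93 to 2 over the K/L arrays, while that of actin overlapped between the groups; the part of this difference in the results was not tested. No detection calls were used, so a level below the 40th percentile of its array (log2 4.84 to 4.95) may be background; the size of a change that starts or ends there is given as measured, with no fold. Counts under 5 members are unsteady: over 97 lists and families, 26 such counts moved by over 1.5 times without 1 array. Where a gene had several probe sets, they moved the same way unless stated. Exceptions with 1 probe set of opposite sign were Ahnak, Fscn1, Tap1, Bcl2, Enah, Klf9 and Tgfbr2.

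Promoter letters are shown for genes among the 25 largest rises and the 25 largest falls. Their windows were searched for a C/EBP-type motif, because mutation of C/EBPα is the lesion of these cells. The windows run from 250 bases before to 50 bases after each start in the RefSeq annotation of GRCm38.p6. Of the 50 genes, 42 had a window. Matches on a chromosome kept out of this count were passed over. Elsewhere, 3 genes had the 8 letters TTGCNNAA, or TTNNGCAA on the other strand, upstream of their outermost start. The count of 3 is thus a lower limit for the 42. Capitals mark the match, and each sequence is written 5′ to 3′ on the strand of its gene, here the minus strand each time. Ffar2 spans chr7:30823821-30823870, S100a9 chr3:90695929-90695971 and Hao1 chr2:134554410-134554459.
Ffar2: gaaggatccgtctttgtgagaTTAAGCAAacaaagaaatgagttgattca
S100a9: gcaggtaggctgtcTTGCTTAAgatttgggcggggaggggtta
Hao1: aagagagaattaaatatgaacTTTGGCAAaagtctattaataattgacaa
The match lay 67 bases before the start of Ffar2, 229 before S100a9 and 79 before Hao1. It is a description of letters and marks no site. The shares that follow count a match anywhere in the 300 bases, at any start of a gene and on every chromosome. They are thus not measured like the 3 genes above. Of all 32851 windows, 10.8% held the motif. Among tested genes the share was 11.5% of 975 that were at least 2-fold higher in K/L cells, 10.6% of 736 at least 2-fold lower and 9.7% of the other 8685.

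The 3 genes moved in both directions. Ffar2, a receptor for short-chain fatty acids on leukocytes, read 6.63, 6.65 and 6.56 in wild type and 10.52, 10.6 and 10.63 in K/L cells, a rise of 3.97 ± 0.1 (SE) or 15.6-fold (adjusted p = 2.8e-09). S100a9, whose product forms calprotectin with that of S100a8, dropped from 13.61, 13.65 and 13.14 to 6.33, 5.53 and 6.86, a 150-fold difference (adjusted p = 5.04e-08). Hao1, the peroxisomal hydroxyacid oxidase, went from 10.84, 10.79 and 9.99 to 4.53, 3.85 and 4.14 and fell by 6.37 (adjusted p = 8.57e-08). The K/L values did not overlap the wild type values for any of the 3. The Sox4 arrays lay between the groups for Ffar2 (8.19, 8.43 and 8.51) and S100a9 (10.83, 10.88 and 10.82) and beside K/L for Hao1 (3.57, 3 and 3.7).

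Across the transcriptome the K/L cells differed from wild type in many genes. Of 12826 genes that passed the filter on low values, 6490 (50.6%) passed an adjusted p of 0.05, 3716 (29%) higher and 2774 (21.6%) lower in K/L cells. At least 2-fold apart were 1203 (9.38%) higher and 930 (7.25%) lower genes, and without the third wild type array the counts were 1015 and 944. Large changes were mostly losses: 77 genes were at least 16-fold lower and 13 at least 16-fold higher. The higher share of calls was 57.3% on the values as deposited and 66.1% (4440 higher and 2273 lower) when each array was centred on its median, a step that moves the median change of all genes from 0.06 to 0.15. Values did not overlap between groups for 58.1% of tested genes, so that separation alone was common here.

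**Figure D1:**
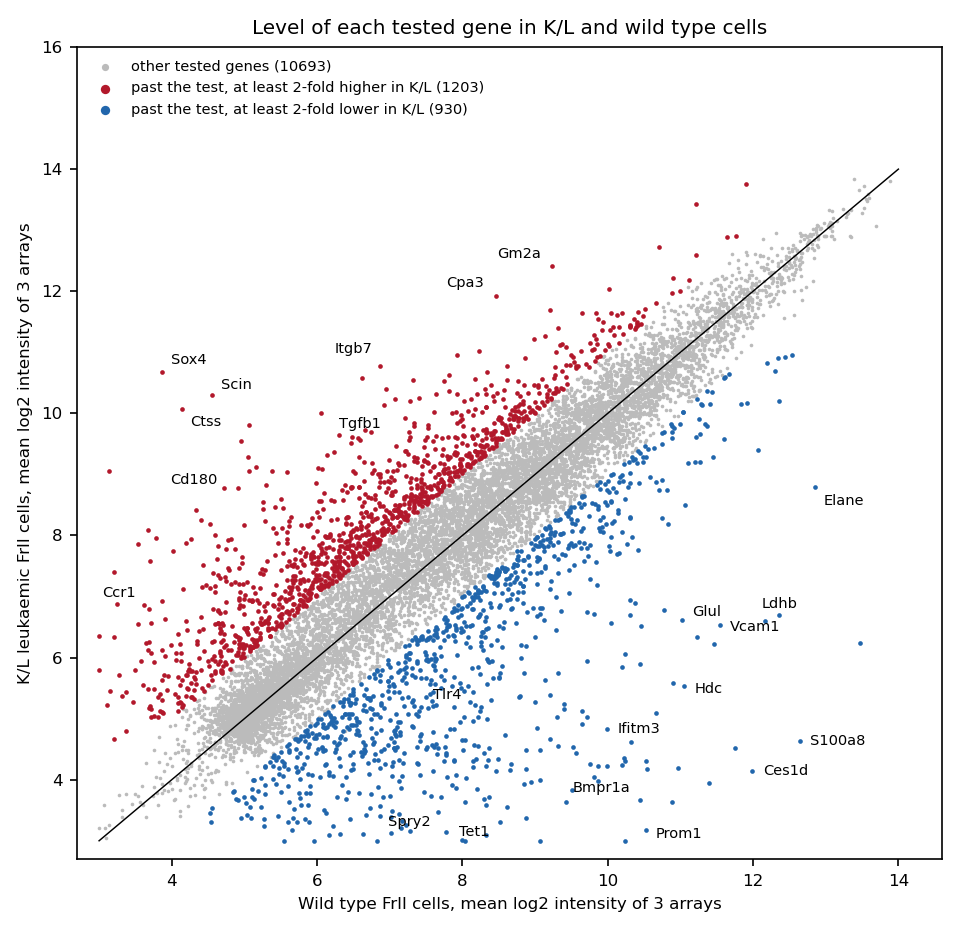
Mean log2 intensity of each of the 12826 tested genes on the 3 wild type arrays (x axis) against the 3 K/L arrays (y axis), with the line of equal level. Red points are the 1203 genes past the test and at least 2-fold higher in K/L cells, blue points the 930 at least 2-fold lower, and grey points the others. The blue cloud reaches farther from the line than the red one.

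A small set of genes crossed from low to high or the reverse on all arrays. With low set below the 40th percentile of each array and high above the 70th (7.26 to 7.41), bounds chosen after the values were seen, 62 genes were high on the 3 wild type arrays and low on the 3 K/L arrays, and 15 went the other way. The gained genes were Sox4, Ctss, Mndal, Scin, Cysltr1, Mzb1, Selenom, Cd180, Slc15a2, Rnf43, C1ra, Nrgn, Fzd5, Arhgap6 and the uncharacterised 2900026A02Rik. Sox4, a transcription factor, went from 3.84, 3.81 and 3.97 to 10.87, 10.52 and 10.62 (adjusted p = 5.09e-10), with 6 of its 8 probe sets moving the same way. Mzb1, an endoplasmic reticulum chaperone best known in B and plasma cells, rose from 3.77, 4.04 and 3.55 to 8.13, 7.8 and 7.95 (adjusted p = 1.45e-08) and read 3.42, 3.43 and 3.5 on the Sox4 arrays. C1ra, a protease of the classical complement pathway, read 4.52, 4.14 and 4.15, then 7.92, 7.92 and 7.97 (adjusted p = 4.6e-08). The bounds that define this set keep K/L and wild type values apart, so the separation of these genes follows from their selection.

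The lost genes came from many functions. They included the stem cell surface protein Prom1, the hedgehog transducer Smo, the gap junction protein Gja1, the ceramide galactosyltransferase Ugt8a, the protease Dpp4, the stress-response gene Ndrg2 and the antisense RNA Kcnq1ot1. Smo read 9.93, 10.03 and 9.66 in wild type cells, 3.91, 3.48 and 4.55 in K/L cells and 9.35, 8.81 and 9.12 in Sox4 cells, a fall of 5.89 in K/L (adjusted p = 8.25e-08). Ugt8a lay at the lowest value of the files, 3, on all 3 K/L arrays and on the Sox4 arrays, so its fall of 6.07 is a lower limit. Gja1 fell from 9.38, 8.86 and 10.05 to 3.53, 3.28 and 4.07 (adjusted p = 3.9e-07), and all 6 of its probe sets moved down. Of the 62 lost genes, 22 were high, 17 low and 23 between the bounds in Sox4 cells. Of the 15 gained genes, 3 were high, 1 was low and 11 lay between.

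**Figure D2:**
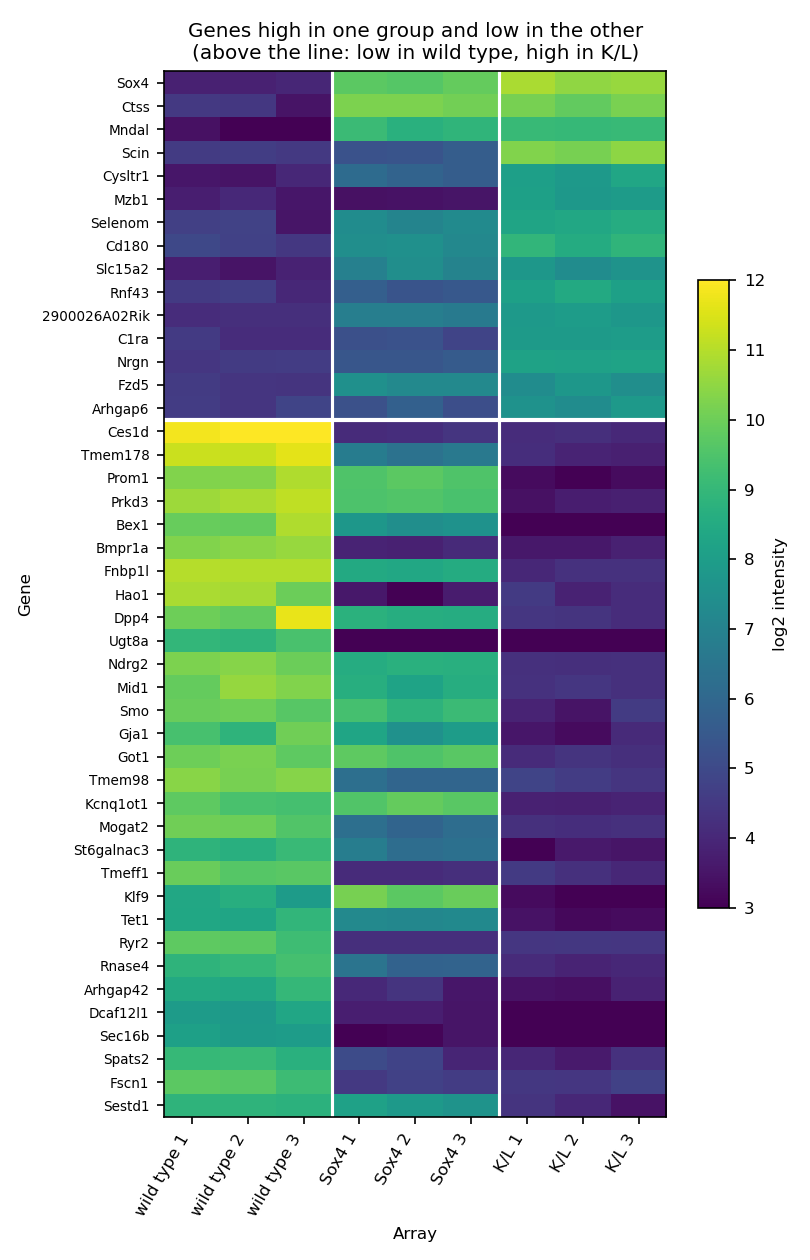
Log2 intensity, by colour, on each of the 9 arrays for the 15 genes that were low in wild type and high in K/L cells and the 30 largest of the 62 that were high in wild type and low in K/L cells. Columns are arrays by group and rows are genes. The K/L columns are alike within each block, which follows from picking the genes by their level on every K/L array. Many of the lost genes keep an intermediate or high level in the Sox4 columns.

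Cytokine receptors changed by member. Of 25 listed haematopoietic growth factor receptors, 19 were tested, 8 rose and 4 fell, with a median change of 0.13 against 0.06 for all tested genes. Csf2ra, the ligand-binding chain for granulocyte-macrophage colony-stimulating factor, rose from 7.01, 6.81 and 6.38 to 9.93, 9.63 and 9.54, a change of 2.97 ± 0.16 (SE) (adjusted p = 4.87e-07). Il3ra and Il6ra rose by 1.07 and 1.31. Il6st, the signalling chain of the interleukin 6 receptor, fell from 6.77, 6.85 and 5.55 to 5.13, 5.11 and 4.97 (adjusted p = 0.00338) and read 9.25, 9.25 and 9.32 in Sox4 cells, so that the leukaemias lay on opposite sides of wild type. The common beta chain Csf2rb did not pass the test (change of -0.29, adjusted p = 0.508), but was 0.81 lower past it without the third wild type array (adjusted p = 0.000255). Csf2rb2, Kit, Flt3 and Csf1r did not pass the test.

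Of 24 tested kinases, STATs and inhibitors of the JAK-STAT route 14 were higher (58.3%) and 4 lower, with a median of 0.44; without the third K/L array 9 were higher. Stat5a, which carries signals of the receptors above, rose by 1.09 (adjusted p = 0.00146). Ptpn6, the phosphatase that shuts such receptors down, read 10.43, 10.41 and 10.44 in wild type and 11.66, 11.66 and 11.67 in K/L cells (adjusted p = 1.45e-06) but 10.27, 10.27 and 10.22 in Sox4 cells. Stat3 was -0.82 lower, a call that was lost without the first (adjusted p = 0.0587) or the second wild type array (adjusted p = 0.0555). Among PI3K-AKT-mTOR genes 14 of 27 rose and 5 fell. The 2 largest rises were inhibitors of mTOR signalling. Deptor went from 7.55, 7.79 and 7.54 to 10.42, 10.3 and 10.2 (adjusted p = 5.36e-08), and Ddit4 from 7.78, 8.62 and 7.38 to 10.43, 10.39 and 10.15 (adjusted p = 4.21e-05); Deptor was also high in Sox4 cells (9.82, 9.88 and 9.76) and Ddit4 was not (8.19, 8.35 and 8.17). Among catalytic subunits of PI3K, Pik3cd rose by 1.57, with 4 of its 6 probe sets going the same way, and Pik3cb fell by 1.43.

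Kinases and feedback genes of the RAS-MAPK route stood near the background, with 8 of 25 tested higher (32%) and 6 lower (24%), but held 1 large fall. Spry2, an inducible inhibitor of receptor tyrosine kinase signalling, dropped from 7.82, 7.77 and 7.76 in wild type to 3, 3 and 3.43 in K/L cells, where 2 arrays were at the lowest value of the files, and stayed at 8.1, 7.91 and 7.97 in Sox4 cells. Its K/L values lay far below both other groups (adjusted p = 3.95e-09 against wild type). Dusp7, a phosphatase of the ERK kinases, rose by 1.5 (adjusted p = 1.35e-05), and Sos2, an exchange factor for RAS, by 1.06 (adjusted p = 9.06e-05).

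The transforming growth factor beta and bone morphogenetic protein route was the signalling list with the lowest median, -0.34 over 26 tested genes, of which 13 fell (50%) and 4 rose. Bmpr1a, a type I receptor for bone morphogenetic proteins, read 10.28, 10.42 and 10.62 in wild type and 3.58, 3.57 and 3.83 in K/L cells, a fall in which all 6 probe sets took part (adjusted p = 5.09e-10). Bmpr2, its type II partner, fell from 7.68, 7.34 and 7.89 to 4.5, 4.83 and 4.42 (adjusted p = 2.86e-07). The values separated fully for both genes, as they did for 58.1% of all tested genes. Sox4 cells shared the low Bmpr1a (3.91, 3.84 and 4.08) but kept Bmpr2 (8.34, 8.2 and 8.26). Id1, a direct target of these receptors, fell by 1.51 and the activin receptor Acvr2a by 1.44. The ligand Tgfb1 rose instead, from 7.08, 7 and 5.33 to 9.36, 9.35 and 9.85, by 3.04, or by 2.47 without the third wild type array, and its receptor Tgfbr2 rose by 1.22.

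Of 20 tested Notch pathway genes 11 rose (55%) and 2 fell, with a median of 0.55. The receptors Notch1 and Notch2 rose by 0.91 and 1.3. Lfng, a glycosyltransferase that tunes Notch for its ligands, read 6.5, 6.38 and 5.79 in wild type, 7.89, 7.97 and 7.92 in K/L and 6.7, 6.42 and 6.07 in Sox4 cells (adjusted p = 7.72e-05 for K/L against wild type). Wnt genes stood nearer the background, with 11 of 30 higher (36.7%), 4 lower and a median of 0.15. Rnf43, a ligase that removes Wnt receptors from the surface, rose from 4.52, 4.68 and 4 to 8.13, 8.48 and 8.13 (adjusted p = 2.11e-07). Among receptors, Fzd5 rose from 4.58, 4.39 and 4.34 to 7.36, 7.76 and 7.46, while Fzd3 fell from 7.84, 8.06 and 8.76 to 5.14, 5.13 and 4.79. The co-receptor Lrp5 rose by 1.88.

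**Figure D3:**
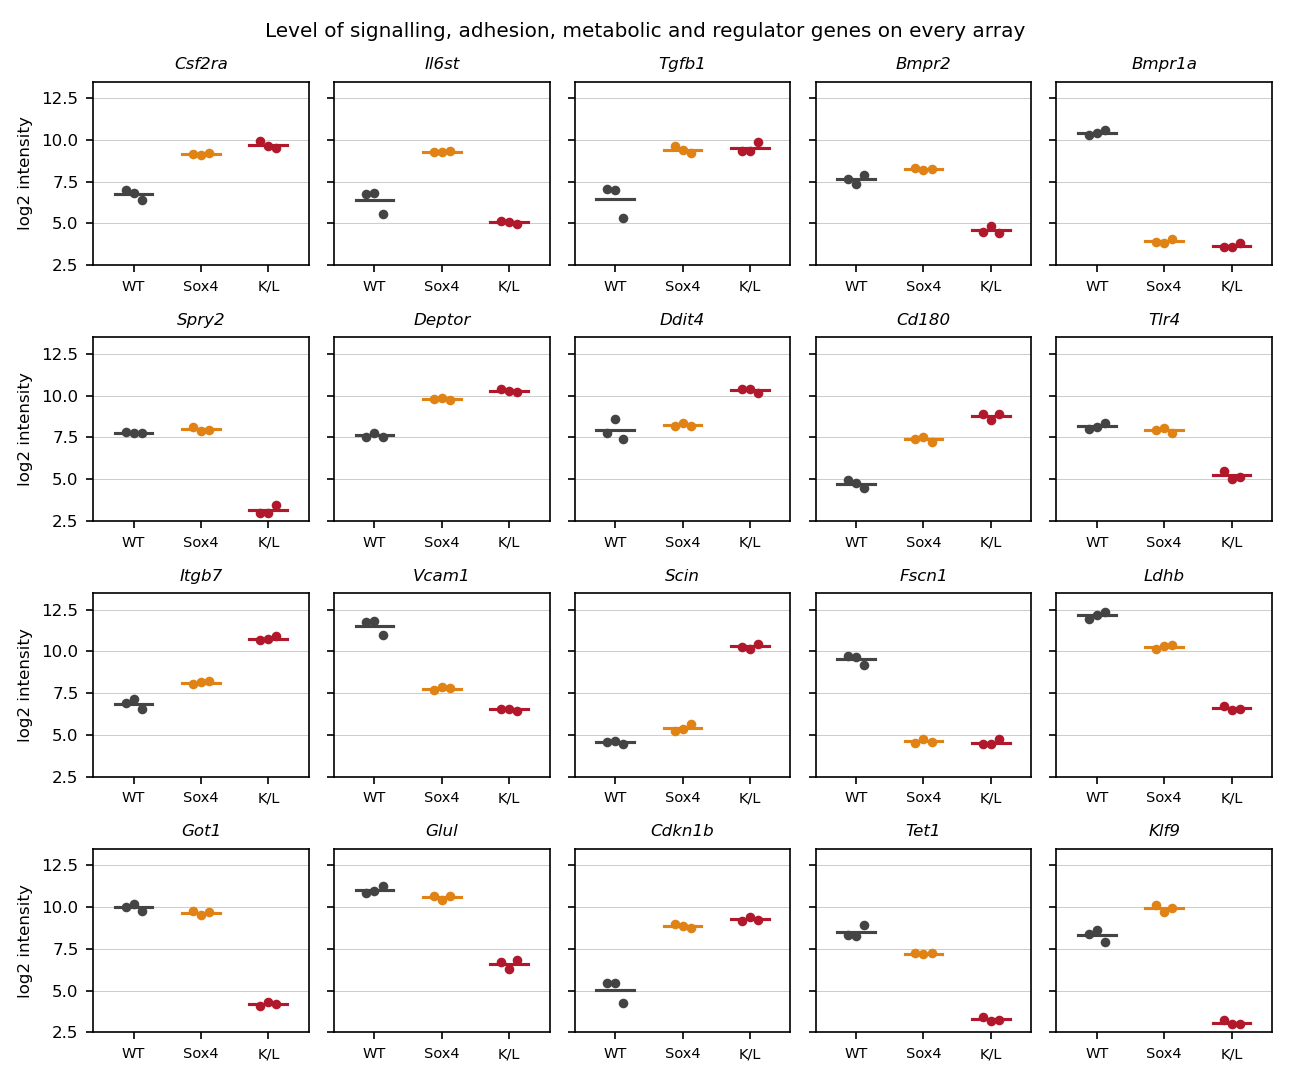
Log2 intensity of 20 genes of signalling, adhesion, metabolism and gene regulation on each of the 9 arrays, 1 panel per gene, with 1 point per array and the groups side by side (wild type, Sox4, K/L). The genes were picked with their changes known. In every panel the 3 K/L points lie apart from the 3 wild type points, as for 58.1% of all tested genes. The Sox4 points lie with wild type for Spry2 and Got1, with K/L for Bmpr1a and Fscn1, and beyond wild type for Klf9 and Il6st.

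Innate sensing changed by member. Of 23 Toll-like receptor pathway genes 10 rose (43.5%) and 2 fell, and both falls were large. Tlr4, the receptor for lipopolysaccharide, read 8.02, 8.14 and 8.34 in wild type and 5.49, 5.02 and 5.16 in K/L cells, a 7.69-fold fall (adjusted p = 2.24e-07), in 3 of its 4 probe sets. Irak3, an inhibitor of the pathway, fell by 2.59 (adjusted p = 9.22e-06). The accessory proteins moved up. Cd180, a Toll-like receptor homologue that restrains Tlr4, rose from 4.95, 4.75 and 4.46 to 8.91, 8.55 and 8.88 (adjusted p = 4.1e-08), and the lipopolysaccharide co-receptors Ly96 and Cd14 rose by 1.81 and 1.43. The adaptor Myd88 rose by 1.07. Of 20 NF-kappaB genes 10 rose and 4 fell, with Nfkbie (1.7) and Bcl3 (1.35) the inhibitor-family members that rose most and the inducible feedback genes Nfkbiz (-2.2) and Tnfaip3 (-1.07) the largest falls.

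Interferon-linked genes went opposite ways by family. Of 26 tested interferon-stimulated genes 12 rose (46.2%) and 1, Ifit2, fell. Oasl1, an antiviral oligoadenylate synthetase homologue, rose from 4.07, 4.29 and 4.19 to 6.59, 6.68 and 6.54 (adjusted p = 4.73e-05). Parp14 and Oas1a rose by 1.7 and 1.51. Ifitm genes, whose products block virus entry at membranes, fell: 4 of 5 tested were lower and 0 higher (0 at an unadjusted p under 0.05). Ifitm3 read 10.56, 10.7 and 8.69 in wild type, 4.67, 4.72 and 5.09 in K/L and 12.15, 11.62 and 12.1 in Sox4 cells. It fell by 5.16, or by 5.81 without the third wild type array. Ifitm1 fell by 3.06, or by 3.62 without that array, and Ifitm2 by 1.6 (adjusted p = 9.62e-05 and 7.72e-06). The Sox4 level of Ifitm3 was above wild type, and K/L lay below Sox4 by 7.13.

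Antigen processing and lysosomal genes rose in most cases. Of 25 tested antigen presentation genes 17 rose (68%) and 2 fell, with a median of 0.77. The increase reached the loading machinery: H2-DMa, which helps peptides onto class II molecules, rose from 5.36, 5.08 and 5.42 to 8.21, 8.24 and 8.25 (adjusted p = 5.13e-08), H2-Oa by 2.68, the thiol reductase Ifi30 from 5.62, 5.49 and 4.78 to 8.79, 8.8 and 8.87, and the class I peptide transporter Tap1 by 1.24. Of 50 tested lysosomal genes 28 rose (56%) and 12 fell, with a median of 0.41. Gm2a, the activator protein for ganglioside breakdown, went from 9.31, 9.28 and 9.09 to 12.41, 12.36 and 12.46 (adjusted p = 8.28e-09), and Grn, which encodes progranulin, from 9.28, 9.33 and 9.31 to 11.29, 11.47 and 11.42 (adjusted p = 1.33e-07). Each K/L array exceeded each wild type array for both, where values did not overlap for 58.1% of all tested genes. The glycogen hydrolase Gaa and the membrane protein Laptm5 rose by 2.08 and 2.14. Galc, the galactosylceramidase, fell from 8.58, 8.46 and 8.43 to 4.09, 4.49 and 4.43 in 2 of its 3 probe sets.

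**Figure D4:**
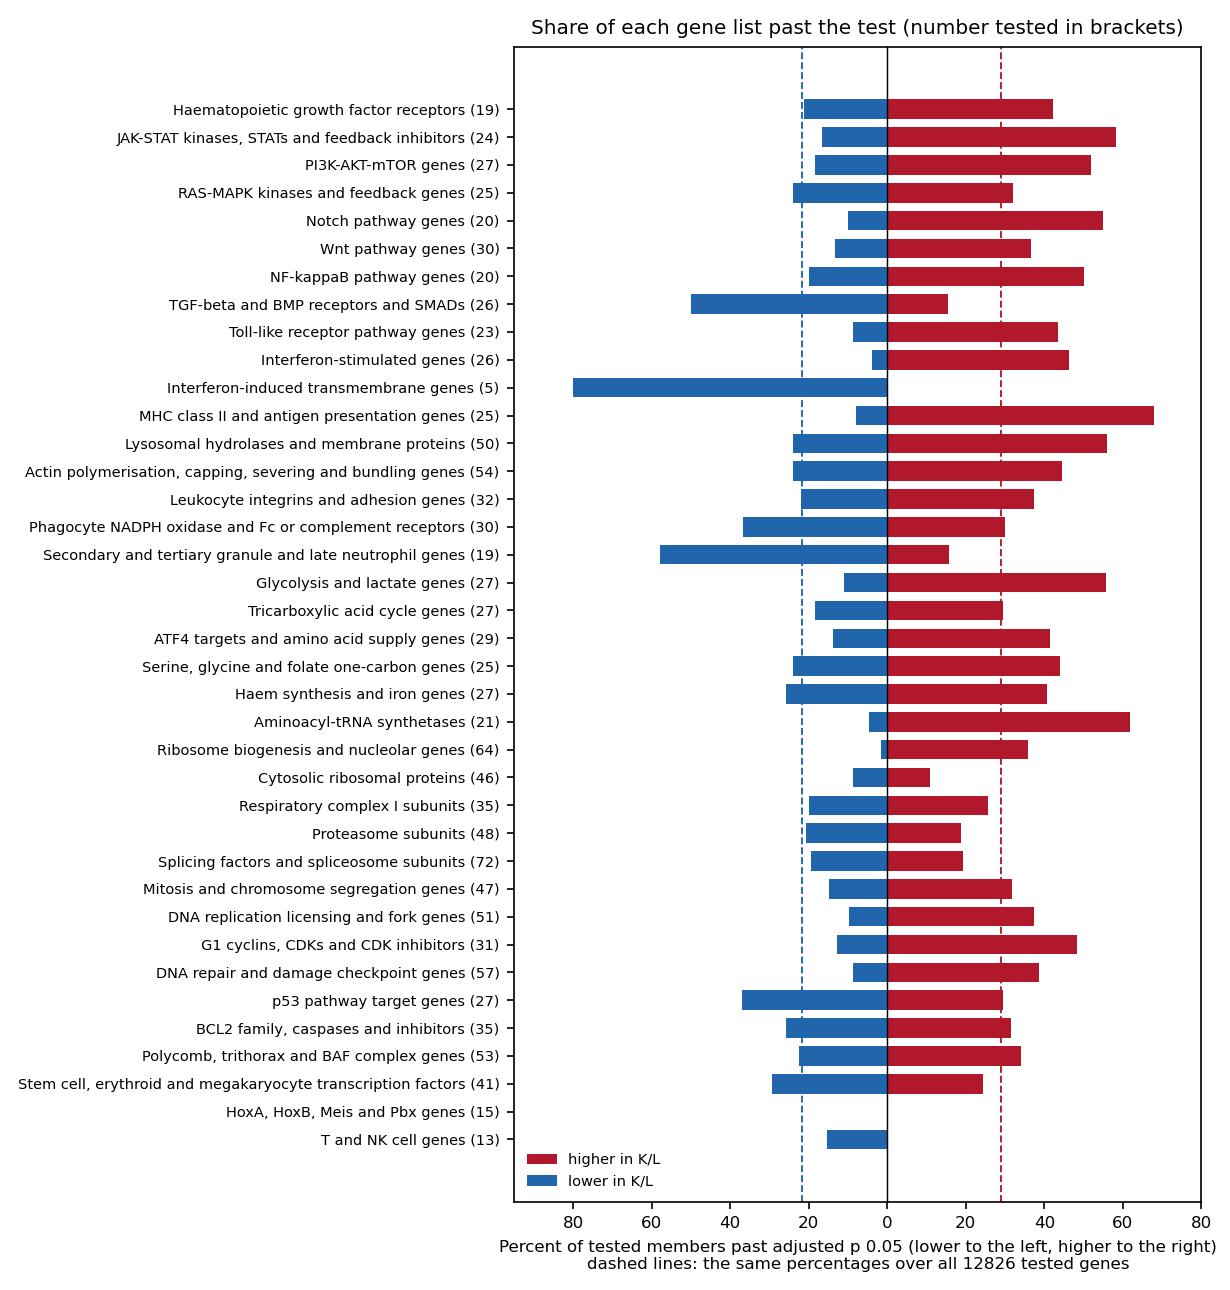
Percent of the tested members of 38 gene lists that were higher (red, to the right) or lower (blue, to the left) in K/L than in wild type cells past the test, with dashed lines at the shares of all tested genes (29% and 21.6%). Antigen presentation, aminoacyl-tRNA synthetase and glycolysis lists reach past the line for higher genes, and secondary granule and TGF-beta lists past that for lower genes.

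Of 54 tested actin regulators 24 rose (44.4%) and 13 fell. The actin-severing proteins Scin and Gsn rose: Scin from 4.58, 4.63 and 4.48 to 10.29, 10.15 and 10.46 (adjusted p = 1.52e-09) and Gsn from 5.63, 5.58 and 5.52 to 8, 7.74 and 7.87 (adjusted p = 1.59e-07), with all 6 Gsn probe sets in the same direction. Neither was as high in Sox4 cells (5.26, 5.34 and 5.65 for Scin, then 5.69, 5.68 and 5.91 for Gsn). The focal adhesion protein Zyx rose by 2.78. The filament bundler Fscn1 fell from 9.72, 9.67 and 9.18 to 4.45, 4.43 and 4.75 (adjusted p = 1.09e-08), the formin Fmnl2 from 9.66, 9.58 and 8.97 to 5.6, 5.24 and 4.63, and Enah, which elongates filaments, by 3.69. Wild type and K/L values did not overlap for these 6 genes, which were named for the size of their change. The same held for 58.1% of all tested genes. Tubb2b, a beta tubulin, fell from 11.3, 11.22 and 11.18 to 6.66, 6.39 and 5.97, and Ahnak and Plec, large scaffold proteins, rose 15.6-fold and 14.5-fold.

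Adhesion molecules held large changes in both directions. Of 32 tested integrins and adhesion genes 12 rose (37.5%) and 7 fell (21.9%), against 29% and 21.6% of all tested genes, with a median of 0.07. Itgb7, the beta chain of the gut-homing integrin, rose from 6.89, 7.17 and 6.54 to 10.68, 10.72 and 10.92 (adjusted p = 5.36e-08). Itgax, the integrin alpha chain also called CD11c, rose from 5.34, 5.52 and 5.92 to 8.24, 7.68 and 7.94 (adjusted p = 1.01e-05). Sox4 cells read 8.02, 8.17 and 8.21 for Itgb7 and 4.85, 5.4 and 4.94 for Itgax. Vcam1, an adhesion receptor for integrins, fell from 11.78, 11.84 and 10.98 to 6.58, 6.57 and 6.46, 32-fold (adjusted p = 5.82e-08), in all 3 probe sets. The E-cadherin gene Cdh1 rose by 2.59, or by 1.96 without the third wild type array. Of 18 chemoattractant receptors 7 rose and 2 fell. Ccr1, a receptor for inflammatory chemokines, read 3.6, 3.51 and 3.77 in wild type, 6.9, 6.62 and 7.06 in K/L and 3.6, 3.42 and 3.82 in Sox4 cells, and its rise of 3.24 ± 0.15 (SE) passed the test (adjusted p = 1.33e-07). P2ry14 and S1pr3, receptors for nucleotide sugars and sphingosine phosphate, rose by 2.58 and 2.56. Rgs1, which dampens such receptors, rose 15.6-fold.

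Of 30 tested genes of phagocyte function 9 rose (30%) and 11 fell (36.7%), and 3 rises but 8 falls reached 2-fold. The oxidase chain Cybb fell from 8.19, 8.21 and 6.46 to 6.03, 5.24 and 6.09, by 1.83, or by 2.41 without the third wild type array, and its partner Ncf4 rose by 1.13. The activating receptors Clec5a and Trem1 fell by 2.08 and 1.87. Siglece, an inhibitory sialic acid receptor, rose by 2.63 (adjusted p = 1.88e-06).

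Of 27 tested glycolysis and lactate genes 15 rose (55.6%) and 3 fell, or 5 without the third wild type array, with a median of 0.46. Hk1, a hexokinase, rose from 7.07, 6.5 and 5.83 to 8.83, 8.84 and 8.67 and Pfkl, a phosphofructokinase, from 8.51, 8.59 and 7.87 to 10.01, 10.05 and 10.23 (adjusted p = 4.3e-05 and 2.43e-05). Ldhb went from 11.94, 12.21 and 12.35 in wild type to 6.73, 6.47 and 6.58 in K/L cells, a 47.5-fold fall in all 4 probe sets (adjusted p = 1.59e-09), and read 10.16, 10.34 and 10.38 in Sox4 cells. Pfkfb2, which makes an activator of phosphofructokinase, fell by 1.25. Tricarboxylic acid cycle genes sat near the background, with 8 of 27 higher, 5 lower and a median of -0.02. The cytosolic isocitrate dehydrogenase Idh1 fell by 2.16 (adjusted p = 3.68e-07), the only member past 2-fold.

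The 2 largest falls among amino acid genes were in enzymes of aspartate and glutamine synthesis. Got1, the cytosolic aspartate transaminase, read 10.03, 10.18 and 9.77 in wild type, 4.11, 4.35 and 4.21 in K/L and 9.75, 9.51 and 9.7 in Sox4 cells, a fall of 5.77 (adjusted p = 1.52e-09) on its 1 probe set. Glul, glutamine synthetase, read 10.83, 10.94 and 11.28, 6.71, 6.31 and 6.83 and 10.66, 10.44 and 10.66 in the same order (adjusted p = 3.44e-08). Both were thus low in K/L cells alone of the 3 groups. Of the 29 tested ATF4 targets and amino acid supply genes to which they belong, 12 rose and 4 fell, among them the transporter Slc7a5 (1.77) and asparagine synthetase Asns (1.24). Of the mitochondrial folate enzymes Mthfd2 rose by 1.33, Shmt2 by 1.15 and Mthfd1l by 1.37, while Mthfd2l fell by 1.87. The cytosolic Mthfs fell by 2.03, and the one-carbon list as a whole had 11 of 25 higher and 6 lower, or 3 lower without the first wild type or the first K/L array. Of 35 purine and pyrimidine genes 12 rose (34.3%) and 7 fell (20%), against 29% and 21.6% of all tested genes. Impdh1, of guanine nucleotide synthesis, rose by 1.55.

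Of 42 fatty acid oxidation and peroxisome genes 17 rose (40.5%) and 12 fell (28.6%). Cpt1a, which admits fatty acids to mitochondria, rose by 1.91 (adjusted p = 3.99e-05). Phyh and Abcd2, of peroxisomal fatty acid breakdown, fell by 1.89 and 2.46. Mogat2, of triglyceride synthesis, fell by 5.64. Of 27 cholesterol genes 7 rose, or 4 without the third K/L array, and 1 fell. Iron and redox genes also changed by member. The iron exporter Slc40a1 fell from 6.65, 7.31 and 5.54 to 4.16, 4.31 and 4.08 and the haem and drug exporter Abcg2 from 7.86, 7.36 and 8.46 to 4.7, 3.74 and 4.45 (adjusted p = 0.000387 and 8.96e-06), while Hfe and Blvrb rose by 1.97 and 2.22. Sox4 cells kept both exporters (7.34, 7.44 and 7.62 for Slc40a1, then 8.07, 7.74 and 8.28 for Abcg2). Among 37 glutathione and thioredoxin genes 15 rose and 7 fell, with Prdx4 up by 2.5 and the transferases Gsta4 and Mgst1 down by 1.91 and 1.83. Hypoxia response genes had 11 of 23 higher and 3 lower; 8 were higher without the third wild type array and 7 without the first K/L array, the third K/L array or all Sox4 arrays. Bhlhe40 rose from 6.64, 7.08 and 6.56 to 8.98, 9.23 and 9.36 (adjusted p = 1.13e-06) and Bnip3, of mitochondrial turnover, by 1.05; Sox4 cells read 6.57, 6.5 and 6.6 for Bhlhe40 and 8.76, 8.59 and 8.68 for Bnip3, below each K/L array.

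Genes that supply translation differed by list, where 29% of all tested genes were higher and 21.6% lower. Of 21 aminoacyl-tRNA synthetases 13 rose (61.9%) and 1 fell, led by Vars (1.55), Wars (1.28) and Gars (1.08). Of 64 nucleolar and ribosome assembly genes 23 rose (35.9%) and 1 fell, with a median of 0.17. Of 47 translation initiation factors 15 rose (31.9%) and 3 fell. Of 14 elongation and release factors 3 rose (21.4%) and 1 fell. Ubtf, which activates ribosomal DNA, rose from 9.09, 9.43 and 8.61 to 10.44, 10.5 and 10.42 (adjusted p = 9.81e-05), and the nucleolar scaffold Nolc1 from 10.13, 10.27 and 9.82 to 11.38, 11.51 and 11.36 (adjusted p = 2.27e-05). Of 46 cytosolic proteins of the ribosome itself 5 rose and 4 fell, or 14 and 2 with median centring, and 8 rose without the third wild type array and 3 without the third K/L array. Of 17 subunits of mitochondrial ATP synthase 3 rose and 1 fell, against 50.6% of all tested genes called. Of 48 proteasome subunits 9 rose and 10 fell, or 6 fell without the second K/L array, and the immune subunit Psmb9 was the largest rise (1.41). Splicing factors had 14 of 72 higher and 14 lower (19.4% each). Respiratory complex I had 9 of 35 higher (25.7%) and 7 lower (20%), near the shares of all tested genes. Without the first and the second K/L array, 3 and 4 complex I genes were lower.

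**Figure D5:**
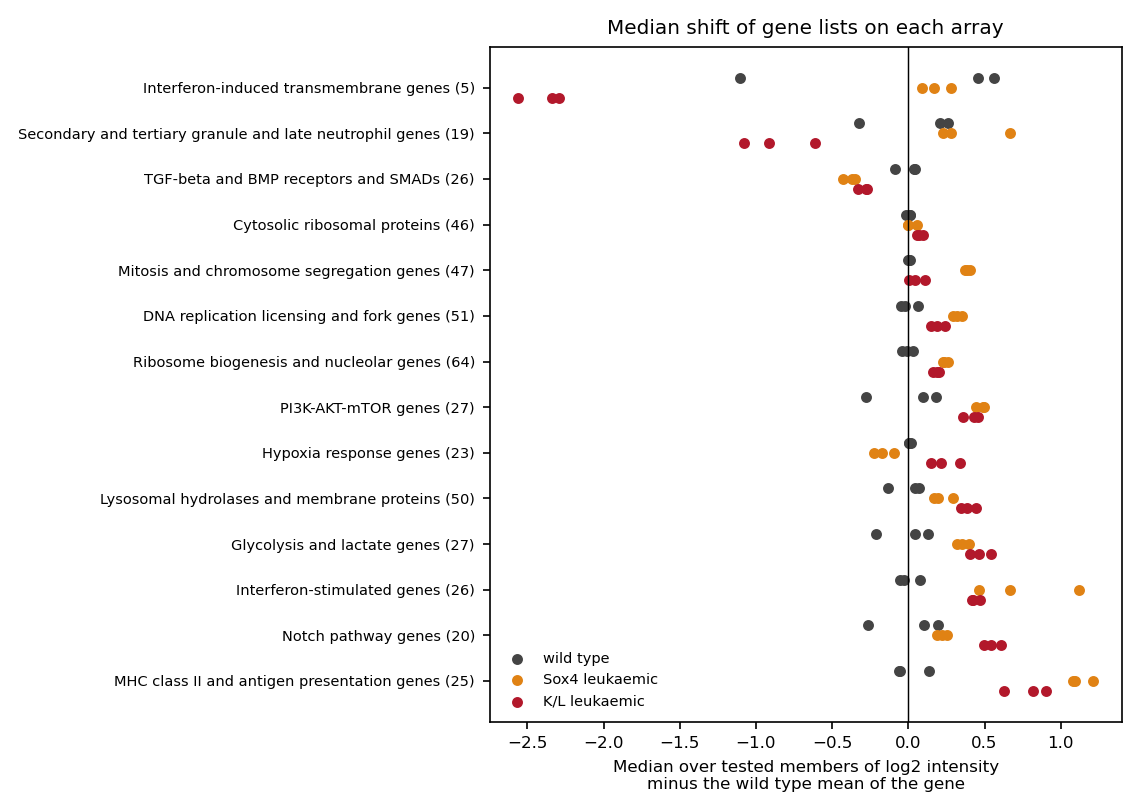
Median, over the tested members of 14 gene lists, of log2 intensity minus the wild type mean of each gene, shown for each of the 9 arrays (x axis) and each list (y axis, number of tested genes in brackets). The K/L points lie to the right of the wild type points for antigen presentation, Notch, glycolysis and lysosomal genes and to the left for secondary granule and Ifitm genes, and near 0 for ribosomal proteins and mitosis genes.

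Replication genes had 19 of 51 higher (37.3%) and 5 lower, or 3 lower without the first K/L array, with the licensing factor Cdt1 up by 1.08 and the polymerase subunit Pold2 by 1.29. Mitosis genes had 15 of 47 higher (31.9%) and 7 lower and a median of 0.02. Mki67, the proliferation antigen, rose from 11.32, 11.51 and 10.85 to 12.11, 12.15 and 11.97 (adjusted p = 0.00138) and Foxm1, which drives mitotic genes, by 1.11, while the spindle protein Nusap1 fell by 0.69. Against Sox4 cells, 25 of the 47 mitosis genes were lower in K/L past the limma test and 0 higher (0 at an unadjusted p under 0.05), where 28.9% of all tested genes were called, 14.9% higher and 14% lower in K/L. At the G1 step 15 of 31 genes rose (48.4%) and 4 fell. The inhibitors led them: Cdkn1b went from 5.45, 5.43 and 4.27 to 9.17, 9.44 and 9.25 and Cdkn2c from 4.94, 4.99 and 4.53 to 8, 8.1 and 7.71 (adjusted p = 1.38e-06 and 1.96e-07), and Sox4 cells were also high for both (8.99, 8.87 and 8.74 for Cdkn1b, then 8.83, 9.04 and 8.94 for Cdkn2c). The related Cdkn1c fell by 1.37. E2f8, a repressor of the E2F family, rose by 1.79.

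Repair genes rose in 22 of 57 cases and fell in 5, or in 8 without the first wild type array. The largest change was a fall of Xrcc5, the larger Ku subunit of end joining, from 7.4, 7.46 and 8.11 to 4.43, 4.29 and 4.55 on its 1 probe set (adjusted p = 5.46e-07). Its partner Xrcc6 did not pass the test (change of 0.06). Mdc1, a damage mediator, rose by 1.32. Among 27 p53 targets 8 rose (29.6%), or 5 without the second K/L array, and 10 fell (37%). Ccng2 and Gadd45a were down by 1.42 and 1.25 (adjusted p = 8.45e-05 and 6.9e-06). Among 35 BCL2 family and caspase genes 11 rose (31.4%) and 9 fell (25.7%), near the 29% and 21.6% of all tested genes. The survival gene Bcl2 rose by 0.79 and the death effector Bak1 by 1.05, and Casp6 fell from 7.76, 8.23 and 8.77 to 6.4, 6.21 and 6.47.

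Of 53 Polycomb, trithorax and BAF genes 18 rose (34%) and 12 fell (22.6%), near the shares of all tested genes. The BAF subunit Arid1a rose from 7.5, 7.68 and 6.65 to 10.16, 10.21 and 10.23 (adjusted p = 4.1e-06) and the histone methyltransferase Kmt2d from 9.62, 9.56 and 8.93 to 11.09, 11.23 and 11.09 (adjusted p = 1.81e-05). The BAF ATPase Smarca4 rose by 1.58, or by 1.02 without the third wild type array. The Polycomb readers Cbx2 and Cbx6 fell by 1.97 and 2.13. The core subunits Ezh2 and Eed did not pass the test. Among DNA methylation and histone-modifying genes 18 of 54 rose (33.3%) and 15 fell (27.8%), against 29% and 21.6% of all tested genes. Tet1, which oxidises methylcytosine, dropped from 8.36, 8.28 and 8.91 to 3.45, 3.21 and 3.25, by 5.21, in all 4 probe sets (adjusted p = 8.28e-09), against 7.23, 7.18 and 7.26 in Sox4 cells. Its relative Tet3 rose by 1.82, or by 1.25 without the third wild type array. Kcnq1ot1, an imprinted antisense RNA, read 9.77, 9.41 and 9.35 in wild type, 3.83, 3.78 and 3.89 in K/L and 9.56, 9.89 and 9.68 in Sox4 cells and fell by 5.68, in all 6 probe sets. It lies antisense within Kcnq1 and is read here by its own probe sets. Of 19 tested imprinted genes 5 fell (26.3%, against 21.6% of all tested genes) and 2 rose, and Nnat (-3.22), Igf2r (-2.75) and Cdkn1c were among the falls.

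Transcription factors of the granulocytic and monocytic fates showed 14 of 32 higher and 9 lower. Cebpa itself rose from 9.78, 9.67 and 9.31 to 10.47, 10.55 and 10.66 (adjusted p = 0.000168), and Cebpb from 7.56, 7.72 and 6.69 to 8.46, 8.71 and 8.43 (adjusted p = 0.00163). Trib1, a partner that promotes breakdown of C/EBPα, fell from 6.03, 7.01 and 6.62 to 4.83, 4.95 and 4.69 (adjusted p = 8.99e-05). Cebpd, Cebpg and Spi1 did not pass the test, and Gfi1, a repressor needed for neutrophil formation, fell by 0.63. Runx3 rose from 7.58, 7.67 and 6.37 to 9.94, 9.87 and 9.98 (adjusted p = 4.07e-05) and Gata2 by 1.35. Irf8, of monocytic fate, rose by 1.49, or by 0.88 without the third wild type array. The immediate-early gene Fosb read 3.95, 4.08 and 4.04 in wild type and 8.69, 8.4 and 6.14 in K/L cells, a rise of 3.72, or of 4.52 without the third K/L array. Egr1, another, rose by 2.61, by 1.79 without the first and by 3.38 without the third K/L array.

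Among factors of stem cells and other lineages 12 of 41 fell and 10 rose, or 11 and 14 with median centring, and 9 falls but 5 rises reached 2-fold. Klf9 went from 8.38, 8.65 and 7.94 in wild type to 3.26, 3 and 3 in K/L cells, where 2 arrays were at the lowest value of the files, and to 10.15, 9.74 and 9.94 in Sox4 cells. Bcl11b, known from T cell commitment, fell from 9.41, 9.35 and 8.45 to 4.15, 4.81 and 4.51 (adjusted p = 4.42e-07) and read 4.35, 4.27 and 4.41 in Sox4 cells. Tcf4 fell by 3.67 and Tal1 by 2.42 (adjusted p = 1.26e-07 and 2.54e-06). HoxA, HoxB, Meis and Pbx genes, which mark other forms of leukaemia, showed 0 calls among 15 tested by limma and 1 at an unadjusted p under 0.05. Without the second or the third wild type array 1 was higher. Hoxa9 lay between 5.45 and 5.76 in wild type and between 5.38 and 5.53 in K/L cells.

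Markers of mature and other cell types moved by list. Secondary and tertiary granule genes had 11 of 19 lower (57.9%) and 3 higher and a median of -0.91. Without the second wild type array 7 were lower, and without the second or the third K/L array 1 was higher. Their linear intensities summed to 19351 to 26222 on the wild type arrays against 2610 to 3364 on the K/L arrays. Chil3, a macrophage and neutrophil chitinase-like protein, went against them with a rise of 3.16, or of 2.38 without the third wild type array. Primary granule genes were split, with 4 of 16 higher and 6 lower: Elane, neutrophil elastase, fell from 12.64, 12.68 and 13.22 to 8.83, 9.03 and 8.55 (adjusted p = 8.05e-08). Monocyte and macrophage genes had 12 of 22 higher and 4 lower. Of eosinophil genes 3 of 7 tested rose and 1, the lipoxygenase Alox15, fell by 0.71, or 2 fell without the first wild type array. The rises were those of Prg3, a granule basic protein, from 7.39, 7.78 and 5.68 to 10.45, 10.64 and 10.12, or by 2.82 in place of 3.45 without the third wild type array, Prg2 by 2.23 and the receptor Il5ra by 2.15. The defining peroxidase Epx read 3.96, 4.37 and 4.22 in wild type, then 4.31, 4.35 and 4.82 in K/L cells, and did not pass the test (adjusted p = 0.137), and Ccr3 and Rnase2a were below the 40th percentile on all 9 arrays. The eosinophil sum spanned 1516 to 2522 on the wild type arrays against 4254 to 4297 on the K/L arrays, and its part in other results was not tested.

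Mast cell and basophil genes had 3 of 10 tested higher and 4 lower, and a sum of 4193 to 5612 in wild type against 6897 to 7485 in K/L cells. Cpa3, a mast cell carboxypeptidase, rose from 9.21, 9.36 and 6.83 to 11.94, 11.83 and 12.03, by 3.47, or by 2.65 without the third wild type array. Hdc, which makes histamine, fell from 10.92, 11.32 and 10.91 to 5.57, 5.23 and 5.78, and the tryptases Tpsab1 and Tpsb2 were low on all 9 arrays. B cell genes had 5 of 10 tested higher and 1 lower, or 0 lower without the second wild type or the first or second K/L array. Cd72 rose by 2.41, and the B cell sum was 1143 to 1266 in wild type against 2739 to 3042 in K/L cells. The defining B cell genes Ebf1, Ms4a1 and Rag1 were low on all 9 arrays. Megakaryocyte genes had 1 of 20 higher and 6 lower, with the thrombin receptor F2r down by 4.19 and Vwf by 2.07. T and NK cell genes had 0 of 13 higher (0 at an unadjusted p under 0.05) and 2 lower, or 1 higher without the third wild type array. Genes of liver and other tissues that wild type FrII cells expressed, Ces1d (11.99 in the mean), Ugt8a and Hao1 among them, fell; 8 of 21 tested on that list were lower and 3 higher, and it summed to 10134 to 12591 against 3374 to 3579. Alb, the albumin gene, read 4.84, 5.28 and 5.16 in wild type, then 5.15, 5.33 and 5.13 in K/L cells.

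Families defined by name gave further patterns. Annexins, calcium-dependent membrane binders, rose in 6 of 9 tested cases (66.7%) and fell in 1. Anxa9 rose by 2.16 and Anxa4 by 1.45, while Anxa3, abundant in neutrophils, fell by 2.03. S100 genes rose in 6 of 9 tested cases, beside the falls of S100a8 and S100a9: S100a10 rose by 2.32 and S100a6 by 1.68. Schlafen genes rose in 4 of 8 cases and Slfn4 fell. Of 283 zinc finger genes named Zfp, 65 rose (23%) and 87 fell (30.7%), or 72 and 77 with median centring. Solute carriers followed the background, with 66 of 227 higher (29.1%) and 46 lower (20.3%). Among matrix and ADAM proteases Mmp11 fell from 8.9, 9.37 and 9.65 to 4.64, 4.56 and 4.45 (adjusted p = 3.44e-08).

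Against Sox4 cells, 1905 genes were higher and 1797 lower in K/L cells past the test (51.5% higher, or 63.6% with median centring, 2546 and 1456). This comparison uses the K/L arrays again, and the comparisons with wild type share the wild type arrays, so the values stand side by side and no overlap is drawn from them. The K/L level lay below both other groups for Spry2, Got1, Glul, Tet1, Klf9, Ifitm3, Prom1 and Kcnq1ot1. Prom1 read 10.3, 10.33 and 10.92 in wild type, 3.26, 3 and 3.28 in K/L and 9.51, 9.73 and 9.52 in Sox4 cells, with 1 K/L array at the lowest value of the files. These 8 genes were picked for that order, so it is a description. Low levels in both leukaemias held for Bmpr1a, Fscn1, Tubb2b, Bcl11b, Ugt8a, Ces1d and Hao1, for which K/L minus Sox4 lay between -0.28 and 0.75.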

How the data were processed

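The values were linear intensities of 45101 probe sets on each of 9 arrays, deposited by the authors. The submitters' processing notes name RMA, with its version not given in the sources used here. Log2 was taken of the deposited intensities with no further scaling; the lowest value is 8 (log2 3). Per the platform annotation of 2016, 34958 probe sets carried 1 symbol, 932 several and 9211 none. Each of 18194 genes was represented by its probe set of highest mean over the 9 arrays. Probe sets ending _x_at were used only for genes with no other. Of the 18194 genes 12826 were tested, those above the 40th percentile on at least 3 arrays. limma 3.58.1 in R 4.3.3 (lmFit and eBayes, group as the only term, all 9 arrays, 6 residual degrees of freedom) gave changes, standard errors (SE) and two-sided p-values adjusted by Benjamini-Hochberg over the tested genes, with 0.05 as threshold; every adjusted p in the text comes from it. With 3 arrays against 3, an exact permutation test of 1 gene could not go below 0.1. The procedure was tested on simulated data.

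Groups came from the titles. Only genes past the test with no overlap between K/L and wild type values could enter the 25 largest rises and falls. Named genes were drawn mainly from these and from up to 8 members past the test of each list. Those members were taken by size of change. Further sources were the sort gate genes, the C/EBP genes and members that did not pass. Not all of these genes are printed. The gene lists, and the genes compared, were chosen with earlier results of these data known. Precision is limited by the 3 arrays per group. Equal replicate numbers did not pair arrays (correlation of deviations between wild type and K/L arrays of -0.0099, 0.082 and 0.016). Alternatives covered the filter, the probe set per gene, scaling, the arrays in the fit, the variance model, a replicate block and leaving out each wild type or K/L array.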

Additional observations from a re-analysis of the deposited data

Results flagged for a closer look

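Some genes moved in opposite directions in the leukaemias, with the K/L minus Sox4 difference itself past the limma test. There were 120 genes higher in K/L and lower in Sox4 than in wild type cells. Il5ra, the interleukin 5 receptor chain, had mean log2 intensities of 6.86 in wild type, 9.01 in K/L and 5.04 in Sox4 cells. Chosen after their values were seen, Ripk4, a receptor-interacting kinase, had means of 6.39, 8.82 and 3.17 in the same order, and Cdh17, a cadherin, means of 4.47, 7.19 and 3.28. A further 155 genes were lower in K/L and higher in Sox4 than in wild type cells, among them Ifitm3, Klf9, the thrombin receptor F2r (means of 7.66, 3.47 and 8.57) and Tcf4 (8.22, 4.55 and 9.37). Both comparisons with wild type share the same 3 wild type arrays.

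Probe sets with several symbols or none took no part in the comparison of genes. Of 10092 such probe sets 5112 were tested by limma. Past an adjusted p of 0.05, 632 were higher and 1710 lower in K/L than in wild type cells. Among the 12826 tested genes 3716 (29%) were higher and 2774 (21.6%) lower. Falls thus outnumbered rises among these probe sets, the reverse of the balance among genes. At least 2-fold higher were 197 of the 5112, against 1203 (9.38%) of the 12826 tested genes. Falls of 2-fold were not counted for these probe sets.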

How the results depend on the processing

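The count of genes past the test between K/L and wild type cells (6490) ranged from 5595 to 6713 over all alternatives and from 5595 to 6653 without 1 array. The count at least 2-fold apart (2133) ranged from 1707 to 2239, and that between K/L and Sox4 cells (3702) from 2818 to 4754, the highest without the third wild type array. Of 89 lists and families with at least 10 tested members, 52 had a median above that of all tested genes, and 48 to 57 over the alternatives. With the replicate number as a block the counts were 6369, 2133 and 3503; the numbers did not pair the arrays. Median centring raised the higher share of calls between K/L and Sox4 cells from 51.5% to 63.6%. Over 97 lists, the median moved beyond the spread of the arrays for 52 with median centring. The call of Stat3 was lost without the first or the second wild type array. RMA values near the lowest value limit what falls can show: those of Ugt8a are lower limits.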
